A study of Mus musculus with 4 samples.

Results

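The genes described here are 10 targets and markers of T cell receptor (TCR) signaling: the nuclear receptors Nr4a1, Nr4a2 and Nr4a3, the zinc finger factors Egr1, Egr2 and Egr3, the surface proteins Cd69 and Cd5, the calcium-dependent factor Nfatc1, and Tox. They were taken by symbol from a table of 47729 mouse Ensembl genes, all 10 were found, and all 10 passed the filter on low counts. CD4 T cells of C57BL/6 mice, given as spleen in the labels, had been driven to become induced regulatory T (iTreg) cells, with anti-CD3 and anti-CD28 to engage the TCR and its costimulator. Both groups also received 5 ng/mL TGF-β, 100 U/mL IL-2 and, at 5 µg/mL, neutralizing antibodies against the cytokines IFN-γ and IL-4. The FeSO4 group received ferrous sulfate (50 µM) for 4 days and the Mock group PBS for the same time, with 2 libraries in each. The study used this comparison to find transcripts that respond to added iron. Whether the cells were restimulated before lysis was not given in the sources used here. The mice used for such cultures were 6 to 8 weeks old.

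When a TCR binds its ligand, calcium and the phosphatase calcineurin bring NFAT factors into the nucleus, while RasGRP1 and ERK kinases switch on serum response factor and its partners. Immediate early genes answer these signals within a short time of stimulation. NR4A1, also called Nur77, is widely used as a reporter of TCR signal strength, and NR4A factors are also known to sustain Foxp3 and Treg identity. EGR2 and EGR3 restrain T cell activation, whereas EGR1 is the most general of the family. CD69 appears early on activated cells, CD5 is set by the strength of TCR signaling and dampens it, NFATc1 amplifies its own transcription after activation, and TOX is known from thymic selection and from exhausted T cells.

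The DNA just before the start sites of the NR4A genes is shown because these are the members known to be switched on together through cyclic AMP response elements (CRE). Windows of 250 bases before the start, in the GRCm38.p6 build, came from RefSeq, where entries matched 5 of the 10 genes (Nr4a1, Nr4a2, Nr4a3, Egr2 and Cd5). They were searched on both strands for the CRE half-site TGACG, for the full CRE TGACGTCA, which contains the half-site, for the CArG box, the site of serum response factor, for the NFAT core GGAAA, for the NR4A element AAAGGTCA (NBRE) and for the EGR site GCGTGGGCG. In the lines that follow, all written 5′ to 3′ on the gene's own strand, capitals mark half-sites on either strand. The Nr4a1 window lies at chr15:101266596-101266845 (plus strand) and that of Nr4a2 at chr2:57124004-57124253 (minus strand). The Nr4a3 window overlaps the span that RefSeq gives the gene, which begins at 48045078, so only 30 bases of it are printed, from chr4:48045090-48045119 (plus strand), and these lie inside that span. The Nr4a1 window also lies inside the RefSeq span of its gene, which begins farther upstream at 101253902, whereas that of Nr4a2 lies outside. None of these 3 sequences overlapped an exon of the mm9 annotation, where each matched the genome exactly at 1 place.
Nr4a1: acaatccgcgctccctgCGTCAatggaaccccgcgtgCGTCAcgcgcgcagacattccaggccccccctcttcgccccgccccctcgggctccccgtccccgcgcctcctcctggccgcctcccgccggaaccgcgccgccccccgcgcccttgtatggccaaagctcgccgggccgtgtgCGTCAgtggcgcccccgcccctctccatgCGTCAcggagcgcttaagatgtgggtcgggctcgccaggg
Nr4a2: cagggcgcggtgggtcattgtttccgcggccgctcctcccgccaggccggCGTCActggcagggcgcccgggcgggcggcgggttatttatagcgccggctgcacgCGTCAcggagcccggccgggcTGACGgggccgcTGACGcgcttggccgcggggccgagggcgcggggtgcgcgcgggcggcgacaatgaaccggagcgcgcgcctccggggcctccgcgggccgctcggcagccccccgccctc
Nr4a3: gtCGTCAcatTGACGtctcgcattccaggc

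Each of the 3 NR4A windows held 4 half-sites, and none held a full CRE. In Nr4a1 they began 233, 213, 69 and 40 bases before the start. In Nr4a2 they began at 200, 144, 123 and 111 bases, and in Nr4a3 at 231, 213, 205 and 147. Of 32851 windows of the same length, 17.8% held a half-site and 0.137% held 4 or more. These windows were not matched for base composition, and G and C made up 74.4% (Nr4a1), 80% (Nr4a2) and 63.6% (Nr4a3) of the NR4A windows. The NFAT core, present in 55.6% of windows, occurred 1 time in the Nr4a2 window and 0 times in those of Nr4a1 and Nr4a3. The NBRE (1.34% of windows) and the EGR site (0.536%) were in none of the windows of these 5 genes. The motifs were chosen with results known, and a match is a run of letters, not a measured site. Of these 3 genes, Nr4a1 alone passed the test of FeSO4 against Mock.

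The Egr2 entry listed 5 starts. A CArG box, found in 1.47% of all windows, lay before the starts numbered 2 to 5, and 2 half-sites lay before those numbered 3 to 5. The windows of starts 3, 4 and 5 began at 67537619, 67537620 and 67537680. They therefore overlap and hold the same CArG box and the same 2 half-sites, which are not separate occurrences. The NFAT core occurred 3 times before start 2, 1 time before each of starts 3 to 5 (the same core) and 0 times before start 1. The stretch before start 3, at chr10:67537793-67537822 (plus strand), is shown because it holds a CArG box and a half-site, both in capitals.
Egr2: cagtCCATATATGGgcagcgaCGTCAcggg

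The Cd5 window held none of the 6 motifs.

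Gene rows of a library summed to 35183187 to 40859178 reads, and the 10 genes were counted from 7 reads (Nr4a2) to 13729 reads (Cd5). Levels are given as CPM, counts scaled to library size with the TMM factors. A gene with 0 reads could be present at up to 3 reads, or 0.0717 to 0.0876 CPM. Limits and intervals on single libraries cover counting error only. The T cell markers Cd3d, Cd3e, Cd3g, Cd4, Trac and Lck summed to 2755 to 2911 CPM in the Mock libraries and to 3220 CPM in each FeSO4 library, and Foxp3, which defines Treg cells, was present in every library. In bulk RNA, fewer cells of a type and less RNA per cell cannot be told apart.

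Of 13732 genes tested with edgeR's quasi-likelihood test at an adjusted p under 0.05, 20% were called, 10.9% higher in FeSO4 and 9.17% lower. Of the 10 TCR-induced genes, 4 were called: Nr4a1 and Cd5 rose, and Cd69 and Nfatc1 fell. Where the mean level reached 10 CPM, 26% of genes were called. The median log2 fold change of the 10 genes was 0.13, within a range from -0.57 (Nr4a2) to 0.81 (Nr4a1), and 7 of the 10 values were positive. With 1 library left out the median ran from 0.04 (without FeSO4 replicate 1, with 5 of 10 positive) to 0.19 (without FeSO4 replicate 2), and it was 0.06 without Mock replicate 2 and with library size only. Over all genes tested the median was -0.0005, and 49.9% of values were positive. The share of higher calls over all genes depended on the scaling (1491 higher and 1259 lower genes with TMM, 980 and 1810 with library size only), which moved the median gene by -0.06 on the log2 scale.

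At the threshold the study used, an unadjusted p under 0.05 and a log2 fold change of at least 0.5 in size, 10.4% of genes passed. Nr4a1 was the 1 member that passed it. The 0 members past it on the lower side compare with 2 lower members at an unadjusted p under 0.05 in edgeR, 1 in DESeq2 and 2 in limma-voom. For 5 of the 10 genes the groups did not overlap in CPM (Nr4a1, Egr1 and Cd5 above, Cd69 and Nfatc1 below), beside 59.5% of all genes tested. With 2 libraries against 2, the smallest p an exact permutation test on a single gene can give is 0.333, so the tests rest on the spread that edgeR shares across genes.

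**Figure D1:**
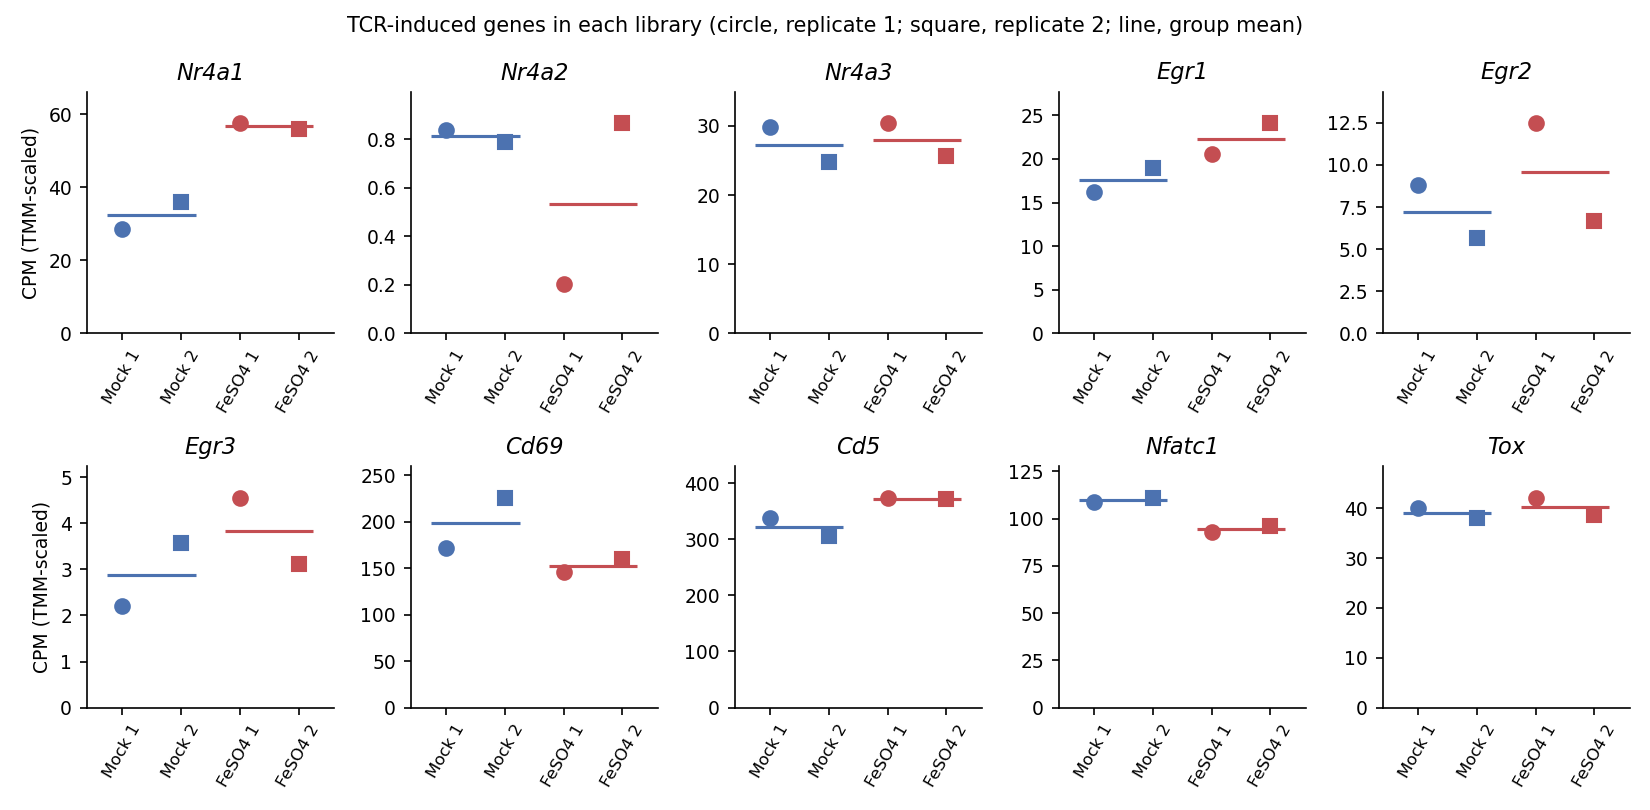
Level of each of the 10 genes in CPM (vertical axes start at 0 and differ between panels) in the 4 libraries. Circles are replicate 1, squares replicate 2, and lines group means. Nr4a1 sat at 28.6 and 36 CPM in the Mock libraries and at 57.5 and 56.1 CPM in the FeSO4 libraries, whereas the libraries of Nr4a3 and Tox overlapped.

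Nr4a1 was the member that changed most. The Mock libraries held 28.6 CPM (replicate 1) and 36 CPM (replicate 2), and the FeSO4 libraries 57.5 and 56.1 CPM in the same order. Both FeSO4 libraries lay well above both Mock libraries, and they differed from each other less than the Mock libraries did. The mean rose from 32.3 ± 5.2 to 56.8 ± 1.02 CPM (SD, n = 2 each), a 1.76-fold increase with a 95% interval of 1.52 to 2.03 (log2 fold change 0.81 ± 0.10, SE, edgeR adjusted p = 2.73e-05). It ranked 149 by p among all genes tested. The call held in all 13 alternatives, with log2 fold changes from 0.65 to 0.99. Nr4a1 (ENSMUSG00000023034) lies on chromosome 15 from 101097277 to 101105223 (mm9, plus strand).

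Its relatives did not pass the test. Nr4a3, which binds the same DNA element as Nr4a1, stood at 29.9 and 24.8 CPM in Mock replicates 1 and 2 and at 30.4 and 25.7 CPM in FeSO4 replicates 1 and 2. In both groups replicate 1 was the higher library, and the groups overlapped almost entirely. The fold of FeSO4 over Mock was 1.03 with a 95% interval of 0.866 to 1.21 (log2 fold change 0.04 ± 0.12, SE, edgeR adjusted p = 0.87), an interval that lies below that of Nr4a1. Its sign changed with the scaling and with the library left out. Nr4a3 (ENSMUSG00000028341) lies on chromosome 4 from 48058025 to 48099319 (mm9, plus strand).

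Nr4a2, the family member best known from dopamine neurons, was close to the limit of use. Its reads numbered 34 (replicate 1) and 33 (replicate 2) under Mock, and 7 and 32 under FeSO4, or 0.838, 0.789, 0.204 and 0.865 CPM. FeSO4 replicate 1 alone was low, and FeSO4 replicate 2 was the highest of the 4 libraries. The log2 fold change of -0.57 ± 0.56 (SE, edgeR adjusted p = 0.525) turned to 0.09 without FeSO4 replicate 1. No difference was detectable at this depth. Nr4a2 (ENSMUSG00000026826) lies on chromosome 2 from 56959241 to 56976414 (mm9, minus strand).

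Summed over the 3 genes, NR4A transcripts came to 59.3 and 61.6 CPM in the Mock libraries and 88.1 and 82.6 CPM in the FeSO4 libraries, and Nr4a1 made up most of the difference. Its share of NR4A reads was 48.3% (95% exact binomial interval 46.3 to 50.3) in Mock replicate 1 and 58.5% (56.5 to 60.4) in Mock replicate 2. In FeSO4 the share was 65.3% (63.6 to 67) in replicate 1 and 67.9% (66.2 to 69.5) in replicate 2. The shares of the Mock libraries differed from each other by more than counting error, and both lay below the FeSO4 shares. The ratio of Nr4a1 to Nr4a3 in CPM was 0.96 and 1.45 in Mock and 1.89 and 2.18 in FeSO4.

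**Figure D2:**
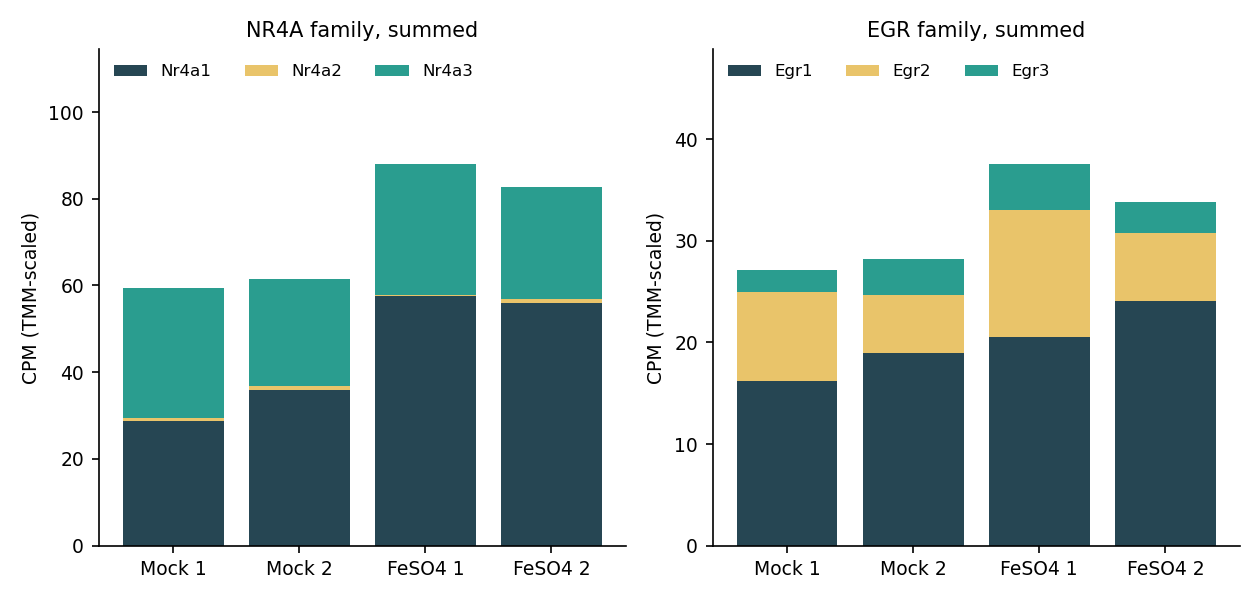
Summed level in CPM of the NR4A genes (left) and EGR genes (right) in each library, stacked by gene. The NR4A sum was 59.3 and 61.6 CPM in the Mock libraries and 88.1 and 82.6 CPM in the FeSO4 libraries, and most of the added height is Nr4a1. The EGR sum was 27.2 and 28.2 CPM in the Mock libraries and 37.6 and 33.8 CPM in the FeSO4 libraries.

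The EGR genes were all higher on average in FeSO4, and none passed the test. Egr1 was at 16.2 and 19 CPM in Mock replicates 1 and 2 and at 20.6 and 24.1 CPM in FeSO4 replicates 1 and 2. The groups did not overlap, although Mock replicate 2 and FeSO4 replicate 1 lay close together. The fold was 1.27 with a 95% interval of 1.06 to 1.52 (log2 fold change 0.35 ± 0.12, SE, edgeR adjusted p = 0.0581, unadjusted p = 0.0124), just outside the threshold. Without Mock replicate 2 the adjusted p was 0.0429 and without FeSO4 replicate 1 it was 0.0368, while it was 0.314 without Mock replicate 1 and 0.381 without FeSO4 replicate 2. Egr1 (ENSMUSG00000038418) lies on chromosome 18 from 35020861 to 35024638 (mm9, plus strand), and 8 bases of its exons overlap Gm17507 on the other strand.

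Egr2 differed more between replicates 1 and 2 than between the groups. Its level was 8.8 CPM (replicate 1) and 5.67 CPM (replicate 2) under Mock, against 12.5 in FeSO4 replicate 1 and 6.65 in FeSO4 replicate 2. In both groups replicate 1 was the higher library, and FeSO4 replicate 2 lay between the Mock libraries. The log2 fold change was 0.39 ± 0.25 (SE, edgeR adjusted p = 0.296). It turned to -0.11 without FeSO4 replicate 1 and reached 0.79 without FeSO4 replicate 2, where it passed the test (adjusted p = 0.00861). Egr2 (ENSMUSG00000037868) lies on chromosome 10 from 66998223 to 67004936 (mm9, plus strand).

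Egr3, a target of NFAT that acts beside Egr2, was the lowest of the 3. It stood at 2.19 and 3.56 CPM in Mock replicates 1 and 2 and at 4.55 and 3.11 CPM in FeSO4 replicates 1 and 2. FeSO4 replicate 1 was the highest and Mock replicate 1 the lowest, and the other libraries were in reverse order. The log2 fold change was 0.40 ± 0.29 (SE, edgeR adjusted p = 0.37), and its 95% interval on the fold ran from 0.863 to 2.01. It was 0.09 without Mock replicate 1 and 0.11 without FeSO4 replicate 1, and 0.80 without Mock replicate 2 and 0.66 without FeSO4 replicate 2, with no call in any of these. Egr3 (ENSMUSG00000033730) lies on chromosome 14 from 70477252 to 70479964 (mm9, plus strand).

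The EGR sum was 27.2 and 28.2 CPM in the Mock libraries and 37.6 and 33.8 CPM in the FeSO4 libraries. Egr1 supplied 59.5 and 67.3% of EGR reads in Mock replicates 1 and 2, against 54.7 and 71.2% in FeSO4 replicates 1 and 2. The balance between Egr1 and Egr2 therefore differed between replicates of a group more than between groups, with a ratio of 1.84 and 3.35 in Mock and 1.65 and 3.62 in FeSO4.

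**Figure D3:**
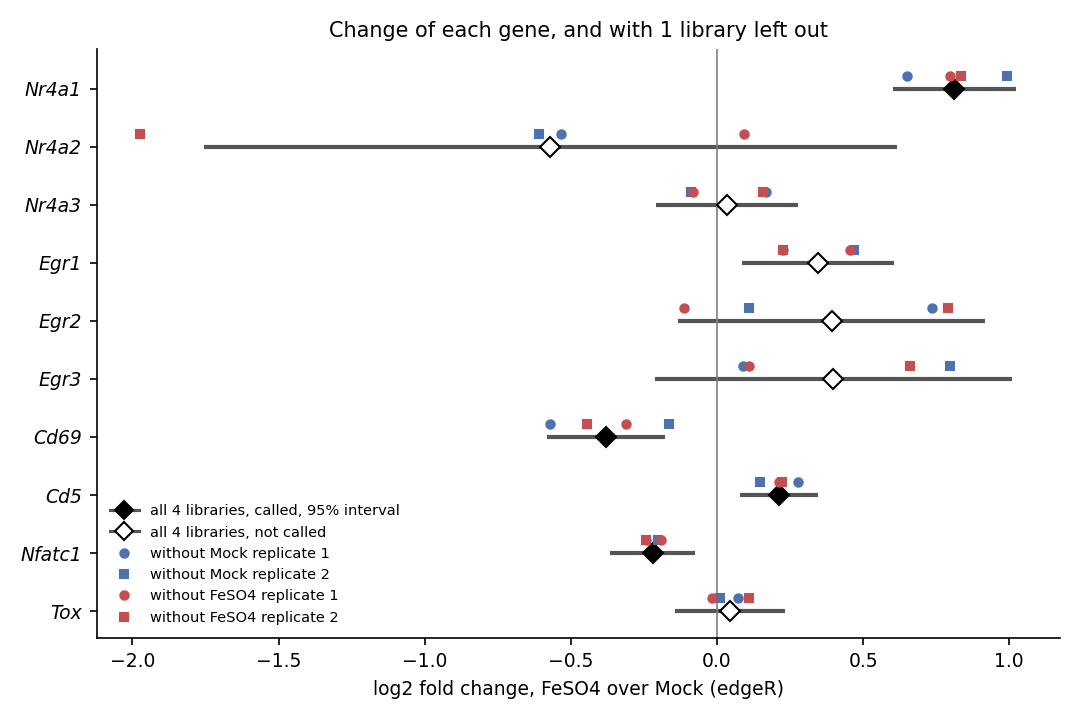
Log2 fold change of FeSO4 over Mock for each gene (diamonds, filled where called at an adjusted p under 0.05) with its 95% interval, and the same with 1 library left out (circles without replicate 1, squares without replicate 2, blue Mock, red FeSO4). Nr4a1 lay between 0.65 and 0.99 whichever library was left out, and Egr2 moved from -0.11 to 0.79.

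Cd69 and Cd5, surface proteins that both report TCR signaling, moved in opposite directions. Cd69 was at 171.7 CPM (replicate 1) and 225.7 CPM (replicate 2) under Mock, and at 145.7 and 159.7 CPM under FeSO4. Both FeSO4 libraries lay below both Mock libraries, but Mock replicate 1 was closer to FeSO4 replicate 2 than to Mock replicate 2. Cd69 fell to 0.769 of its Mock level (95% interval 0.668 to 0.884), a log2 fold change of -0.38 ± 0.10 (SE, edgeR adjusted p = 0.00985). The call rested on Mock replicate 2, without which the log2 fold change was -0.17 (adjusted p = 0.177). It was also lost in DESeq2 (adjusted p = 0.204) and without the filter on low counts (0.198). Cd69 (ENSMUSG00000030156) lies on chromosome 6 from 129217342 to 129225387 (mm9, minus strand).

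Cd5 was the most abundant of the 10 genes. It stood at 336.9 and 305.8 CPM in Mock replicates 1 and 2 and at 373.9 and 370.9 CPM in FeSO4 replicates 1 and 2. The FeSO4 libraries were nearly equal and lay above both Mock libraries. Cd5 rose 1.16-fold (95% interval 1.06 to 1.27), a log2 fold change of 0.21 ± 0.06 (SE, edgeR adjusted p = 0.0267). The call was lost without Mock replicate 2 (adjusted p = 0.162), FeSO4 replicate 1 (0.115) or FeSO4 replicate 2 (0.0802), and also with library size only (0.11) and without the filter (0.114). Cd5 (ENSMUSG00000024669) lies on chromosome 19 from 10792633 to 10813464 (mm9, minus strand). Expressed as a ratio, Cd69 over Cd5 was 0.51 and 0.738 in Mock and 0.39 and 0.431 in FeSO4.

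Beside these changes, 3 of the 6 T cell markers, Cd3d, Cd3g and Trac, were called higher, against 10.9% of all genes tested. Cd3d rose by 0.38 ± 0.06, Cd3g by 0.50 ± 0.06 and Trac by 0.19 ± 0.06 on the log2 scale (SE, edgeR adjusted p = 0.000425, 2.04e-05 and 0.0451). Foxp3 fell by 0.59 ± 0.09 (edgeR adjusted p = 0.000223). The markers were not run in the alternatives. The other T cell markers, Cd3e, Cd4 and Lck, were not called, with log2 fold changes of 0.13, 0.13 and -0.02 (edgeR adjusted p = 0.159, 0.132 and 0.892). Of the Treg markers, Ikzf2, which encodes Helios, fell too (log2 fold change -0.79 ± 0.14, adjusted p = 0.000986), and Il2ra and Ctla4 were not called. Activated B cells and myeloid cells also use NR4A, EGR and CD69. The 6 myeloid markers summed to 4.51 CPM in Mock replicate 1 and to 0.175 to 0.513 CPM in the other libraries. Lyz2 reads numbered 164 and 8 under Mock (replicates 1 and 2) and 0 in each FeSO4 library. Fcgr3 went the other way, with 3 reads in each Mock library against 5 and 18 under FeSO4 (replicates 1 and 2). The remaining myeloid markers had at most 7 reads in any library, and none of the 6 passed the filter on low counts. Of the B cell markers, Ms4a1 had 1 read in Mock replicate 1 and 0 elsewhere, and Cd79a stood at 2.64 and 1.84 CPM under Mock and at 2.22 and 1.86 CPM under FeSO4. The 4 NK cell markers summed to 0.296 and 0.598 CPM under Mock and to 1.02 and 1 CPM under FeSO4. Of these, Ncr1 and Klrb1c were at 0 in all libraries and Klre1 had at most 2 reads. Klrc1 had 12 and 25 reads under Mock against 34 and 35 under FeSO4 (log2 fold change 1.10 ± 0.51, SE, edgeR adjusted p = 0.147), and passed the study's threshold (unadjusted p = 0.0464). The part of any of these markers in the values of the 10 genes was not tested.

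Nfatc1, the NFAT family member that is itself induced by activation, fell. Its level was 108.9 and 111.1 CPM in Mock replicates 1 and 2 and 92.8 and 96.1 CPM in FeSO4 replicates 1 and 2. Replicates were close in both groups and the groups stood apart. The fold was 0.859 (95% interval 0.776 to 0.95), a log2 fold change of -0.22 ± 0.07 (SE, edgeR adjusted p = 0.0325). The direction held in all 13 alternatives, but the call was lost without Mock replicate 2 (adjusted p = 0.106), FeSO4 replicate 1 (0.235) or FeSO4 replicate 2 (0.0977), and without the filter (0.112). Nfatc1 (ENSMUSG00000033016) lies on chromosome 18 from 80802944 to 80909810 (mm9, minus strand).

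Tox stood at 40.1 and 38.1 CPM in Mock replicates 1 and 2 and at 42.1 and 38.6 CPM in FeSO4 replicates 1 and 2. The groups overlapped, and the 95% interval on the fold, 0.904 to 1.17, was narrow (log2 fold change 0.04 ± 0.09, SE, edgeR adjusted p = 0.784). Tox (ENSMUSG00000041272) lies on chromosome 4 from 6613500 to 6918704 (mm9, minus strand), and 260 bases of its exons overlap Gm11802 on the other strand. How the counting treated strand was not given in the sources used here, so reads of Egr1 and Tox cannot be told apart from those of their antisense partners where they overlap.

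Per length of exon, as RPKM averaged over the 4 libraries, the order of levels was Cd5 (167.7), Cd69 (108.4), Nr4a1 (18), Nfatc1 (13.8), Egr1 (6.43), Tox (5.22), Nr4a3 (4.62), Egr2 (2.47), Egr3 (2.28) and Nr4a2 (0.166). Among neighbors in this order, the ranges over libraries overlapped for Nr4a1 and Nfatc1, for Egr1 and Tox, for Tox and Nr4a3, and for Egr2 and Egr3. Within libraries, Tox lay above Nr4a3 in all 4, whereas the order of each of the other 3 pairs differed between libraries. Nfatc1 lay above Nr4a1 in both Mock libraries (14.65 and 14.95 RPKM against 11.58 and 14.55) and below it in both FeSO4 libraries (12.5 and 12.9 against 23.2 and 22.7). Egr2 lay above Egr3 in replicate 1 of each group and below it in replicate 2. Exon lengths came from the mm9 annotation. For Egr3 the annotated exons add up to 1469 bases, and its level per length would be lower with a longer model.

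**Figure D4:**
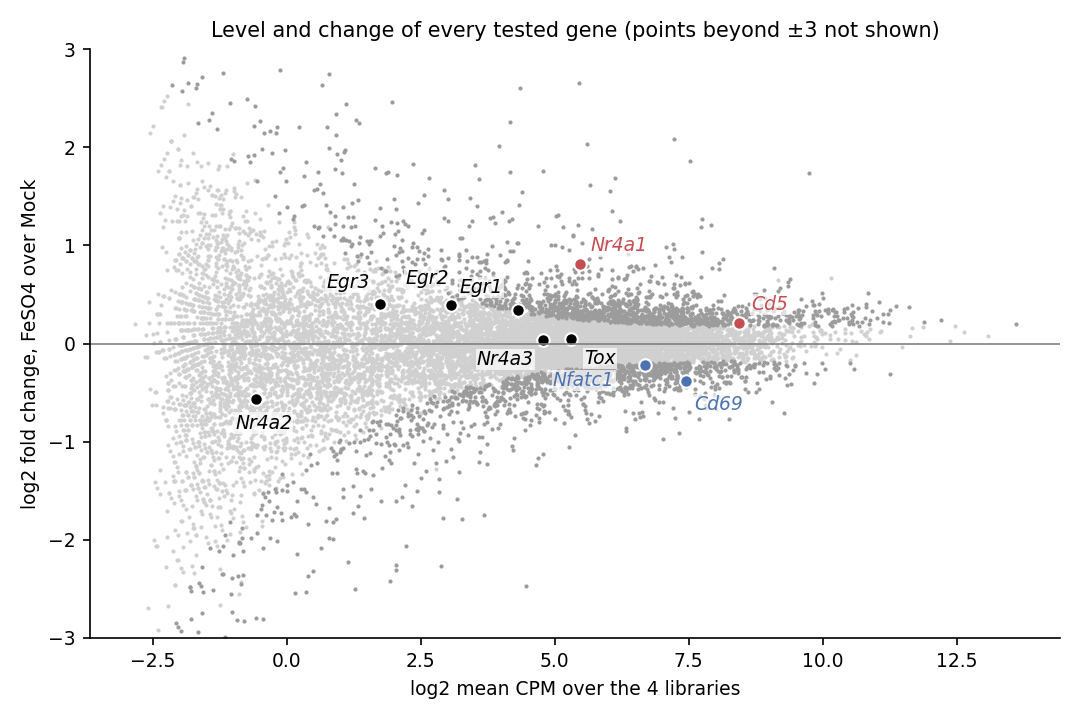
Log2 fold change of FeSO4 over Mock against mean level (log2 CPM) for every gene tested, with the 10 genes labelled. Light gray points were not called and dark gray points were called, and the labelled genes are red where called higher, blue where called lower and black where not called. Nr4a1, at 0.81, lay among the called genes above 0, while Egr2 and Egr3, at 0.39 and 0.40, lay among genes that were not called.

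The genes whose pattern over the 4 libraries was most like that of Nr4a1 and of Cd69, the called members of smallest p, were sought among 8521 other genes, each averaging 10 CPM or more. Likeness was the root mean square difference in log2 CPM after centering each gene on its own mean. For Nr4a1 these were Scarb1 (difference 0.035), which encodes a lipoprotein receptor and rose from 23.8 to 41 CPM, and Tbc1d30 (0.043), with a mean of 9.35 CPM for Mock and 17 CPM for FeSO4. For Cd69 they were D3Ertd254e (0.018), with a mean of 14.1 CPM for Mock and 11 CPM for FeSO4, and Myst4 (0.024), now called Kat6b, a histone acetyltransferase, at 25.6 and 19.5 CPM. Within a difference of 0.1 there were 16 genes for Nr4a1 and 176 for Cd69, so the pattern of Cd69 was the more common.

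The other genes of the pathway were followed in 5 lists that hold 95 genes, of which 94 were matched to 1 Ensembl ID each (Mrtfa was not) and 87 passed the filter, with 9 called higher and 28 lower. Over all genes tested, 20% were called (10.9% higher and 9.17% lower), and 26% where the mean reached 10 CPM. The share called was 63.6% of tested relatives and partners, 33.3% of calcium and calcineurin genes, 27.8% of the ERK and serum response factor route, 60% of other immediate early genes and 35% of feedback and anergy genes. Without the filter on low counts, 5 were higher and 10 lower. Genes named in these lists only to spell out a count of 5 or fewer were chosen after their values were seen. Among relatives and partners of the members, 11 of 15 were tested, with 2 higher and 5 lower. Without the filter on low counts, 0 of this list were higher and 1 lower. The median log2 fold change with the filter was -0.07. The sign of this median was not stable, at 0.04 without Mock replicate 2 and without the filter and -0.01 without FeSO4 replicate 2, and 2 genes were lower without Mock replicate 2 or FeSO4 replicate 1. The EGR corepressors Nab1 and Nab2, which hold EGR activity in check, both rose, by 0.23 ± 0.07 and 0.39 ± 0.09 on the log2 scale (SE, edgeR adjusted p = 0.0316 and 0.0044). Nab2 stood at 38.7 and 35.2 CPM in the Mock libraries and at 48.7 and 48.4 CPM in the FeSO4 libraries, so its groups stood clear of each other, though its call was lost without the filter (adjusted p = 0.0529). The call for Nab1 was lost when any 1 library was left out (highest adjusted p = 0.228 over all alternatives).

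The lower relatives were Nfatc2, Nfat5, Rxrb, S1pr1 and Klf2. The call for Rxrb (log2 fold change -0.21) was lost when any 1 library was left out (adjusted p = 0.0898 to 0.209). That for Nfat5 (-0.35) was lost without Mock replicate 2 (-0.21, adjusted p = 0.178) or FeSO4 replicate 1 (-0.23, adjusted p = 0.182). Nfatc2, an NFAT family member present before stimulation, stood at 261.7 and 274.2 CPM in the Mock libraries and at 204.6 and 215.4 CPM in the FeSO4 libraries. It fell by 0.35 ± 0.06 on the log2 scale (SE, edgeR adjusted p = 0.000938) and kept its call in all 13 alternatives. Nfatc3 did not pass (-0.07 ± 0.07, adjusted p = 0.554). Klf2, which keeps T cells in circulation by inducing the sphingosine receptor S1pr1, fell by 0.51 ± 0.08 (adjusted p = 0.000411, but 0.0624 without the filter), and S1pr1, whose protein CD69 removes from the surface, fell by 0.21 ± 0.06 (adjusted p = 0.0279), a call that was lost without Mock replicate 2 or FeSO4 replicate 1 (highest adjusted p = 0.344 over all alternatives). Cd6, a paralog of Cd5, was at 306.8 and 286.6 CPM in the Mock libraries and 330.4 and 304.6 CPM in the FeSO4 libraries, with overlapping groups (0.10 ± 0.07, adjusted p = 0.323). Egr4 and Tox2 did not pass the filter on low counts, at no more than 0.03 and 0.38 CPM in any library.

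Of 20 genes of calcium entry and calcineurin, 18 were tested, 0 were higher and 6 lower, with a median of -0.10. At an unadjusted p under 0.05, edgeR had 1 higher and 7 lower, as did DESeq2 and limma-voom. The IP3 receptor Itpr2 fell by 0.49 ± 0.08, the catalytic calcineurin subunit Ppp3ca by 0.39 ± 0.07, and Rcan3, a regulator of calcineurin, by 0.28 ± 0.06 on the log2 scale (SE, edgeR adjusted p = 0.000438, 0.00145 and 0.00449). The call for Itpr2 was lost without the filter (adjusted p = 0.0522), where 2 genes of the list were lower. With 1 FeSO4 library left out, whichever it was, 4 were lower, and the calls for Stim1 and Cabin1 were lost in 5 and 3 alternatives, that of Stim1 when any 1 library was left out. Rcan1, a regulator that NFAT itself induces, stood at 15.1 and 16.3 CPM in the Mock libraries and 13.5 and 13.7 CPM in the FeSO4 libraries and did not pass (-0.21 ± 0.13, adjusted p = 0.277).

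Of 20 genes of the ERK and serum response factor route, 19 were matched (all but Mrtfa) and 18 tested, 2 were higher and 3 lower, with a median of -0.03 that turned to 0.01 without Mock replicate 2 and was -0.06 without FeSO4 replicate 2. Dusp5, a nuclear phosphatase that removes phosphate from ERK, fell from 110.8 and 126.3 CPM in the Mock libraries to 69.9 and 74.9 CPM in the FeSO4 libraries (log2 fold change -0.71 ± 0.08, SE, edgeR adjusted p = 9.55e-06). Spred1, which restrains Ras, was at 16.6 and 16.7 CPM in the Mock libraries and at 27.5 CPM in each FeSO4 library (0.73 ± 0.11, adjusted p = 0.000158). Rasgrp1, which couples the TCR to Ras, fell by 0.40 ± 0.06 (adjusted p = 0.00033). These 3 calls held in all 13 alternatives. The others called were Mapk3 (0.21), whose call was lost in 6 alternatives, among them leaving out Mock replicate 2, FeSO4 replicate 1 or FeSO4 replicate 2 (highest adjusted p = 0.241), and Dusp2 (-0.32), whose call was lost without Mock replicate 2 (0.0593) and without the filter (0.0829).

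Of 20 other immediate early genes, all 20 were tested, 2 were higher and 10 lower, with a median of -0.23. Nfkbia, which encodes an inhibitor of NF-κB that NF-κB induces, stood at 771.5 and 769.9 CPM in the Mock libraries and at 473.4 and 471.9 CPM in the FeSO4 libraries. It fell by 0.71 ± 0.06 on the log2 scale (SE, edgeR adjusted p = 3.38e-07). Klf10, a target of TGF-β, fell by 0.70 ± 0.08 (adjusted p = 1.55e-05), and Tnfaip3, which encodes the ubiquitin editor A20, by 0.70 ± 0.09 (adjusted p = 2.75e-05). The higher genes were Klf6 (log2 fold change 0.53 ± 0.07) and Atf3, a stress-induced factor (2.34 ± 0.40), which was low in all libraries, at 0.592 and 0.646 CPM in the Mock libraries and 3.91 and 2.43 CPM in the FeSO4 libraries. In these libraries Nr4a1 was higher while 10 of the 20 genes of this list were lower. That count was 5 without the filter, 7 without FeSO4 replicate 1 and 13 without Mock replicate 1, and the calls for Jun and Junb were each lost in 4 alternatives.

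Of 20 genes of negative feedback and anergy, all 20 were tested, 3 were higher and 4 lower, with a median of -0.06. Without the filter on low counts, 2 were higher and 0 lower, and with edgeR's legacy dispersion option 3 were higher and 2 lower. Without FeSO4 replicate 1 the lower genes numbered 1 and the median was -0.03, without Mock replicate 2 they numbered 2, and without FeSO4 replicate 2 the median was -0.12. The adaptor Sla, which lowers TCR levels at the surface, rose by 0.38 ± 0.07 on the log2 scale, and the phosphatase gene Ptpn6, which encodes SHP-1, by 0.28 ± 0.06 (SE, edgeR adjusted p = 0.00142 and 0.00416). Ubash3b, which encodes a phosphatase that acts on ZAP-70, fell by 0.36 ± 0.08 (adjusted p = 0.00325, but 0.0561 without the filter). The third higher gene was Fasl (0.91 ± 0.29), at 1.73 and 1.89 CPM in the Mock libraries and 3.04 and 3.76 CPM in the FeSO4 libraries, and its call was lost in DESeq2, without the filter and when any 1 library was left out (highest adjusted p = 0.235). The other lower genes were Cbl, Pag1 and Rnf128, whose calls were lost in 3, 5 and 7 of the 13 alternatives. For Cbl these included leaving out Mock replicate 2 (adjusted p = 0.304) or FeSO4 replicate 1 (0.0543), and for Pag1 leaving out Mock replicate 2 (0.29), FeSO4 replicate 1 (0.119) or FeSO4 replicate 2 (0.217). For Rnf128 they included leaving out Mock replicate 1 (0.185), FeSO4 replicate 1 (0.0705) or FeSO4 replicate 2 (0.331).

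**Figure D5:**
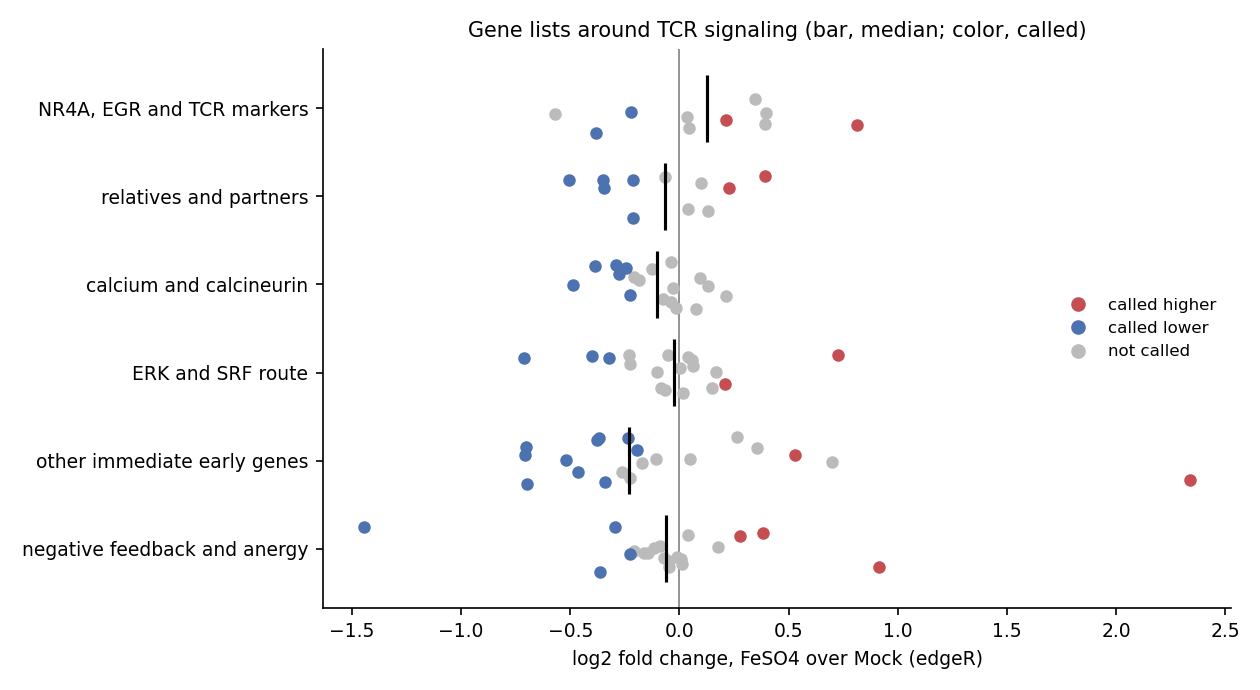
Log2 fold change of FeSO4 over Mock for each tested gene of 6 lists (points, red called higher, blue called lower, gray not called) with the list's median as a bar. The 10 members had a median of 0.13, the other immediate early genes one of -0.23, and the remaining lists lay between -0.10 and -0.03.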

How the data were processed

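RNA of 4 libraries was deposited as 1 table of raw counts per Ensembl gene, not normalized by the authors. Groups came from the labels. The methods name STAR, mm9 and DESeq, whereas the submitters' processing notes name Trim Galore 0.6.7, STAR 2.7.9a, featureCounts and mm10, and the 5 closing rows of unassigned reads, left out here, carry htseq-count names. The conflict was not resolved, and mm9 positions (GENCODE M1) are for orientation. Symbols matched 32799 of 47729 IDs. The largest unassigned classes were reads without a feature (4.36 to 6.03% of a library) and reads with several alignments (4.27 to 4.62%).

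Counts were tested in R 4.3.3 with edgeR 4.0.16 (filterByExpr by group, 13732 genes kept; TMM; quasi-likelihood F test; Benjamini-Hochberg adjustment over all genes kept; calls at an adjusted p under 0.05). The SE is the log2 fold change divided by the square root of F. The quasi-likelihood fit was run with and without edgeR's legacy dispersion option. The choice of the fit without it as the reported one was made after the results of both had been seen, and the legacy fit is given as an alternative. The other alternatives were scalings, filters, DESeq2 1.42.0, limma-voom 3.58.1, a replicate block, a stricter threshold and each library left out. The script was tested on simulated data.

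The genes, lists, markers and motifs were chosen with earlier results of these data known. Named were all members, per list up to 3 called genes of smallest p, 8 direct relatives, and the 2 nearest genes of the 2 members of smallest p. The methods describe pairs from independent experiments. The labels do not say that the number marks a pair. A chi-square statistic over genes was 11.3 per degree of freedom between the Mock libraries and 9.02 between the FeSO4 libraries, so neither pair was within sampling noise. If libraries share a culture, p-values measure technical spread only. One cell type marker is not reported here.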

Additional observations from a re-analysis of the deposited data

How the results depend on the processing

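Of the 4 calls, Nr4a1 was called in all 13 alternatives, and all 4 kept their direction. With the legacy dispersion option the same 4 members were called, with 1455 genes higher and 1221 lower. With library size only, 980 genes were higher and 1 member was. Without the filter on low counts, 524 genes were higher and 304 lower, 1 member was higher and 0 lower (edgeR, with 2 lower at an unadjusted p under 0.05), and 5 genes of the pathway lists were higher and 10 lower. DESeq2 called 1 member lower, and an adjusted p under 0.01 left 1 higher and 1 lower. Leaving out 1 library in turn gave 893 (without FeSO4 replicate 1) to 1199 higher and 710 (without the same library) to 1158 lower genes. It gave 2 higher and 0 to 2 lower members (0 without Mock replicate 2, with 2 lower at an unadjusted p under 0.05), 1 to 2 members past the study's threshold on the higher side and 0 to 1 on the lower, and 7 to 8 higher and 17 to 29 lower genes of the pathway lists. The log2 fold changes then ran from -1.97 to 0.0921 for Nr4a2, from -0.0891 to 0.169 for Nr4a3, from -0.114 to 0.792 for Egr2, from 0.0881 to 0.798 for Egr3 and from -0.0163 to 0.109 for Tox. With library size only, Nr4a3 was at -0.0292 and Tox at -0.0218. The lone library of a group was then assumed to vary like those of the other group. The cause of these shifts was not tested.

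With the replicate number as a block, 1847 genes were higher and 1580 lower, and 3 members were higher and 2 lower, the added one being Egr1 (log2 fold change 0.34, adjusted p = 0.024). Deviations of same-numbered libraries from their group means correlated at 0.03 over all genes kept and at 0.22 over genes of at least 10 CPM, and had the same sign for 7 of the 10 members. With 2 libraries in each group these values cannot settle whether the numbers mark pairs. Depth limited Nr4a2 most, at 7 to 34 reads.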
